A study of Mus musculus with 6 samples.

Results

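The replication-dependent histone genes supply the core histones H2A, H2B, H3 and H4 and the linker histone H1 that package newly copied DNA. Of the 21887 protein-coding genes of a RefSeq table of GRCm38, 67 were taken, by symbols that begin with H2ac, H2bc, H3c or H4c, by H1f1 to H1f6, or by an older symbol that begins with Hist1h, Hist2h, Hist3h or Hist4h. The symbol placed 63 of them, and the older symbol alone placed the other 4, which were H4f16 (Hist4h4), H2bu2 (Hist3h2ba), H2aw (Hist3h2a) and H4bc24 (Hist1h2br, counted as an H2B gene by that name). The rule uses names and no measured value, though it was set with earlier results of these data known. The Hist1 cluster of chromosome 13 held 54 genes, the Hist2 cluster of chromosome 3 held 10, Hist3 on chromosome 11 held 2 and Hist4 on chromosome 6 held 1. By product there were 6 H1, 18 H2A, 18 H2B, 12 H3 and 13 H4 genes.

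These genes lie in tandem arrays, most have no introns, and their mRNAs end in a stem-loop in place of a poly(A) tail. Their transcription rises as cells enter S phase, when cyclin E and CDK2 phosphorylate NPAT in a nuclear compartment called the histone locus body. CD8+ T cells, the killer cells of the adaptive immune system, divide rapidly after activation, and each division requires a new supply of histones. H3K4me3, trimethylation of lysine in the tail of histone H3, marks the promoters of genes that are active or poised.

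The study profiled H3K4me3 by chromatin immunoprecipitation and sequencing, after cutting the chromatin with micrococcal nuclease and with no crosslinking step named in the labels. The cells were CD8+ tumour-infiltrating lymphocytes from E0771 tumours, a mouse mammary tumour line, in C57BL/6 mice. One group was wild type. In the second group, Cre recombinase had removed Atg5, a gene required for autophagosome formation. The labels name neither the promoter that drove Cre, nor the part of Atg5 removed, nor the age of the mice or how many were pooled. Each genotype had 1 H3K4me3 library, so no difference below has a replicate check and no test between genotypes was made. The H3K27me3 and input samples, which make up the rest of the 6 samples of the series, were not analysed here.

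The wild-type list held 48546 regions, which are the peaks the authors called, and the knockout list 46565, with median widths of 1103 and 1130 bp, and neither list states the depth of its library. The defining genes of the labelled cell type were compared between the lists. Of 10 T cell genes, 4 had a wild-type region and 10 a knockout region within 1 kb of the start. Covered length is the part of the 5001 bp window centred on a gene start, 2.5 kb each way, that lies under regions. For the T cell genes it ranged from 0 to 2708 bp in wild-type cells and from 1724 to 5001 bp in knockout cells. At 4 of the 10 genes the wild-type list had 0 bp, namely at Cd8a, which encodes a subunit of CD8, at Cd3e, Cd2 and Bcl11b. For other cells, with 6 markers each, the genes marked in the wild type and then the knockout were 6 and 6 for epithelial and tumour cells, 6 and 5 for myeloid cells, 4 and 4 for endothelial cells and fibroblasts, and 1 and 2 for B cells. Their median differences (knockout minus wild type) were 562.5 bp for epithelial and tumour cells, -357.5 bp for myeloid cells, -638 bp for endothelial cells and fibroblasts and 470 bp for B cells. The makeup of the cells cannot be told apart from the genotype in what follows, and its part in the results was not tested. The lists do not check the genotype labels either, and exchanged labels would turn the sign of every difference below. In libraries of mixed cells, fewer cells of a type and less of the mark per cell cannot be told apart either.

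The DNA before the starts of 7 histone genes is shown because the results below turn on these genes. The sequences come from the RefSeq promoter table of GRCm38.p6, which matched 62 of the 67 genes. H3c1, H2bc21, H4c14, H3c7 and H2bc4 were not among them. Each run is 5′ to 3′ on the gene's own strand and ends at the base before the gene start. Where a neighbour starts in the opposite direction within the 250 bases, only the bases between both starts are given. Capitals mark matches to 3 motifs on either strand, and a match on the opposite strand appears as the reverse complement. The TATA box was searched as TATAAA. The CCAAT box was searched by the letters of its name, and the octamer that OCT1 binds as ATTTGCAT. No motif is contained in another. The first pair are genes without the mark at their start, H2ac1 (chr13:23934187-23934436, plus strand), which encodes a testis H2A, and H1f6 (chr13:23695561-23695810, plus strand), which encodes the testis H1.
H2ac1: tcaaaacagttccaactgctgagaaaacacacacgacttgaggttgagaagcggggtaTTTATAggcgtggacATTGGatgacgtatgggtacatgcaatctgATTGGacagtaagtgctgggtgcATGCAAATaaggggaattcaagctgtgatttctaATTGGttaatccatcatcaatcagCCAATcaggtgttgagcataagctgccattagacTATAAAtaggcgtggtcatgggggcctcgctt
H1f6: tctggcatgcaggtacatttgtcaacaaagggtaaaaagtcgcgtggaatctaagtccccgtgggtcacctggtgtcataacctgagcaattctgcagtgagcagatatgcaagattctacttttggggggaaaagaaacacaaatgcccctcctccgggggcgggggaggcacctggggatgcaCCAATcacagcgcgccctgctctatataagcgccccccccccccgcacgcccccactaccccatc
H2bc11 (chr13:22042950-22043197, plus strand) belongs to the second part of the Hist1 cluster, where all 5 genes had a longer covered length in the knockout. H2bc15 (chr13:21753913-21754075, plus strand) had the longest loss of covered length, and H2bu2 (chr11:58948661-58948910, plus strand) the longest gain.
H2bc11: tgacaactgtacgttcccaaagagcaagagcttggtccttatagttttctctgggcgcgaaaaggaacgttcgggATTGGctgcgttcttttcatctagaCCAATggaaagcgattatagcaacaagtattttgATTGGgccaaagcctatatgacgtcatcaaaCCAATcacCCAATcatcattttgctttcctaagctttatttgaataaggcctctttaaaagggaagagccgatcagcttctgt
H2bc15: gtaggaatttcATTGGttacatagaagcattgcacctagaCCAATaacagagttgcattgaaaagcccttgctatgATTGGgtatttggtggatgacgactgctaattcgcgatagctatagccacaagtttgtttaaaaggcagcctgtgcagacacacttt
H2bu2: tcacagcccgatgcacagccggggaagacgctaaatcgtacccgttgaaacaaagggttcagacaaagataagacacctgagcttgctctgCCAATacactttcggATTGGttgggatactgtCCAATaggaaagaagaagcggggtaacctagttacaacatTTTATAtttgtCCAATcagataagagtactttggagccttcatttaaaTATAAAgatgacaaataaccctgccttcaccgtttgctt
H4f16 (chr6:136804432-136804681, minus strand) lay under the region with the highest fold of the family in both lists, a ratio to local background. H4bc24 (chr13:21833493-21833742, plus strand) is shown as 1 of an identical pair. Its 250 bases match those before H2bc23 on the minus strand at 0 differing bases, and this pair was chosen after the sequences and values were seen.
H4f16: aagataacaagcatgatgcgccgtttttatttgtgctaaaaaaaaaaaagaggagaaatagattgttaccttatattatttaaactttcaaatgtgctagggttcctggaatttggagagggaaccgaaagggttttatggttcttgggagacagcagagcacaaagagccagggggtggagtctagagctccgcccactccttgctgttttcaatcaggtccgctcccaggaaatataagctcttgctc
H4bc24: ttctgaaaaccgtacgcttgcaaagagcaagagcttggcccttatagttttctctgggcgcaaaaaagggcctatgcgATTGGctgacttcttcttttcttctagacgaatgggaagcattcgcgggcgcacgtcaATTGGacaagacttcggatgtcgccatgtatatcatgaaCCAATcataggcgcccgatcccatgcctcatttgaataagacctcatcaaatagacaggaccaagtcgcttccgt

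These elements were common in the family. In the 250 bases before the start, 46.8% of the 62 histone genes held TATAAA, beside 12.4% of 17492 coding genes. CCAAT was present in 82.3% of the histone genes and 36.5% of coding genes, and ATTTGCAT in 21.0% and 1.62%. All 18 H2A and 16 of 16 H2B promoters held CCAAT, as did all 6 H1 promoters, 8 of 10 H3 promoters and 3 of 12 H4 promoters. The octamer was found before 7 H2A and 6 H2B genes and before none of the H1, H3 or H4 genes. Divergent H2A and H2B genes share these windows, so their counts are not independent. The counts use all 250 bases and both strands, so some matches lie inside a divergent neighbour. At H2bc15 the single TATAAA match began 190 bases before the start, on the opposite strand, beyond the 163 bases between it and H2ac15. The 25 TATAAA matches on the gene's own strand began a median of 33 bases before the start. The unmarked H2ac1 promoter printed above holds 2 matches to TATAAA, 4 to CCAAT and 1 to ATTTGCAT, and the H4f16 promoter holds none. A match is a description of these letters and not a binding site.

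H3K4me3 lay at nearly every histone gene in both genotypes. A gene counted as marked when any region came within 1 kb of its start. By this rule 64 of 67 histone genes were marked in the wild-type list (95.5%, exact 95% interval 87.5 to 99.1%, counting error only), beside 58.5% of all coding genes. In the knockout list 64 of 67 were marked as well, beside 59.9% of all coding genes. The 64 genes were the same in both lists, where 56.7% of coding genes were marked in both. No histone gene was marked in 1 list only, whereas 1.75% of coding genes had the mark only in wild-type cells and 3.21% only in knockout cells. All 12 H3 and all 13 H4 genes were marked, as were 17 of 18 H2A, 17 of 18 H2B and 5 of 6 H1 genes.

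The 3 unmarked genes are known for expression in the testis, and 38.3% of all coding genes were marked in neither list. H2bc1 and H2ac1, a divergent pair for testis H2B and H2A whose starts are 280 bp apart, stand alone at the end of the Hist1 cluster. Their windows had 0 bp covered in each library. The region nearest to the H2bc1 start ended 2819 bp from it in the wild type (chr13:23930050-23931337, fold 12.7). In the knockout it ended 3095 bp from that start (chr13:23930054-23931061, fold 8.71). Over the gene span with 2.5 kb on either side, the difference at H2bc1 was -113 bp. H1f6, the testis linker histone, lies between marked genes. Its window held 1312 wild-type bp and 1126 knockout bp, all from the region at its neighbour H4c3, whose near edge was 1189 bp (wild type) and 1375 bp (knockout) from the H1f6 start.

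The histone genes carried long stretches of the mark, often in regions that neighbouring histone genes shared. Their median covered length was 3709 bp in wild-type and 3689 bp in knockout cells. For all coding genes the medians were 1482 and 1599 bp, and for the 12414 genes marked in both lists 2582.5 and 2584 bp. At 3 genes the regions filled the whole window of 5001 bp in both libraries, H4c17, H2bc7 and H2ac7. Among the marked genes the shortest lengths were 577 bp at H2bu2 in the wild type and 1285 bp at H4c2 in the knockout.

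**Figure D1:**
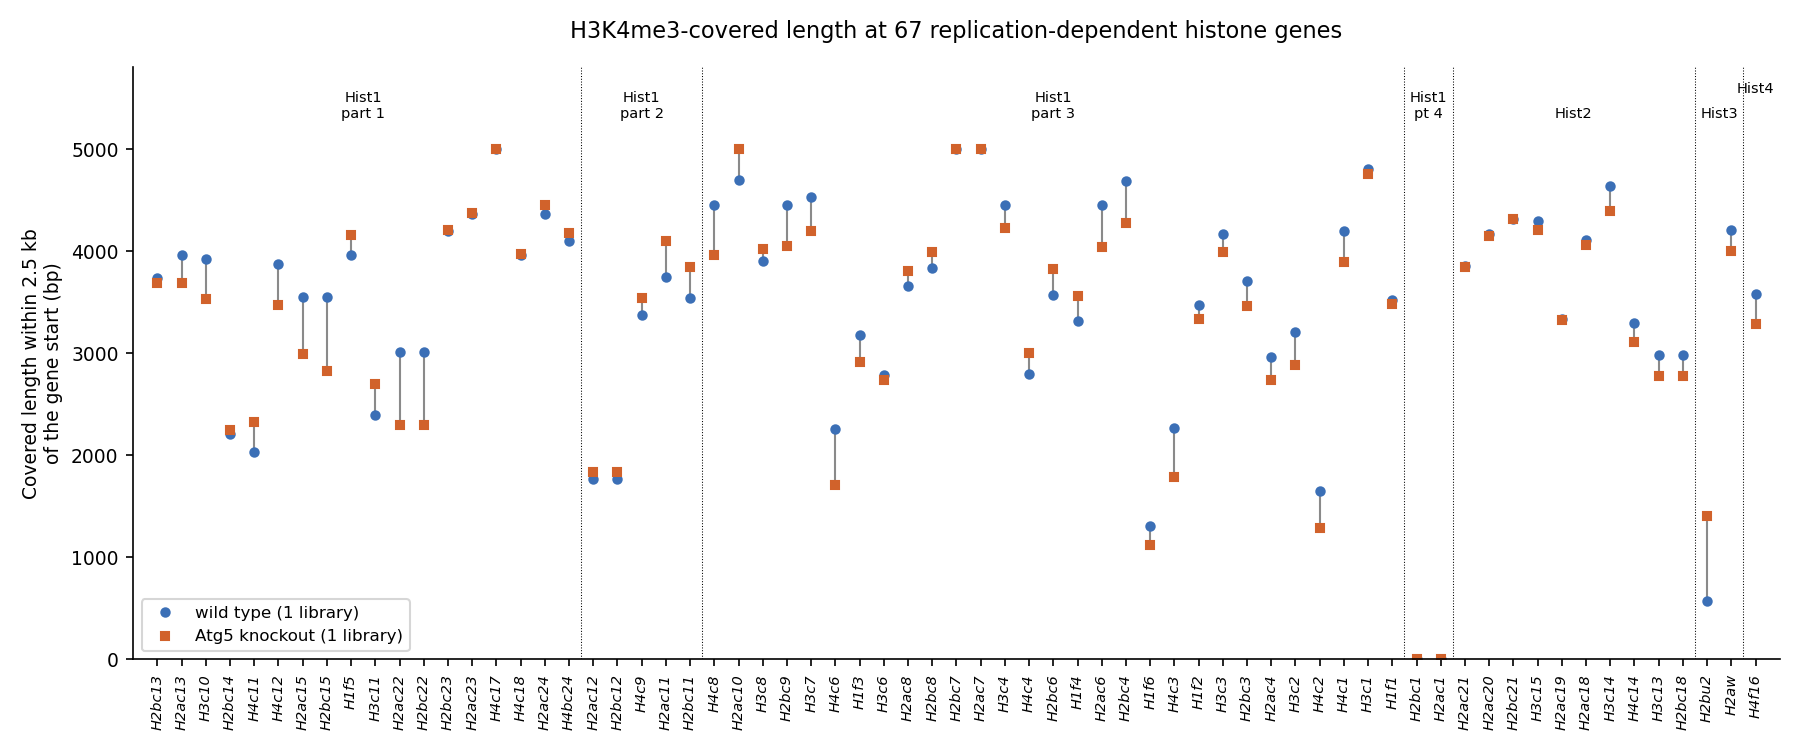
Covered length in bp within 2.5 kb of the start (y axis) of each of the 67 histone genes in genome order by cluster (x axis), with 1 circle for the wild-type library and 1 square for the knockout library joined by a line. Most genes sit between 2000 and 5001 bp in both libraries, H2bc1 and H2ac1 sit at 0, and H2bu2 has the longest gain, from 577 to 1407 bp.

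Where neighbouring genes shared a region, that region was counted once. Each list had 35 regions that held at least 1 histone gene start, and 19 of them held 2 or more. These 19 held 47 of the 63 starts under a wild-type region and 48 of the 64 under a knockout region. The widths of regions with 1 start were not summarised apart, so how much of the length comes from sharing was not tested. The wild-type regions were 1647 to 7651 bp wide with a median of 3571 bp, at percentile 94.1 of the widths of their own list. The knockout regions were 1285 to 7583 bp wide with a median of 3287 bp, at percentile 90.9 of theirs. Neither list was limited to regions at gene starts, and the widths of regions at other gene starts were not compared. One region held 5 starts in each list, those of H2ac8, H2bc8, H2bc7, H2ac7 and H3c4, and it was 7651 bp wide in the wild type (chr13:23570065-23577715) and 7583 bp in the knockout (chr13:23569911-23577493). These regions overlapped almost completely between the genotypes, with 92.9% of the wild-type bp inside knockout regions and 96.2% of the knockout bp inside wild-type regions. The same shares were not computed for other regions, so whether this overlap is particular to the histone genes is unknown. Each wild-type region overlapped 1 knockout region. A single knockout region of 7359 bp at H4c8, H2ac10 and H3c8 spanned 2 wild-type regions of 5044 and 2690 bp that lay 303 bp apart.

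**Figure D2:**
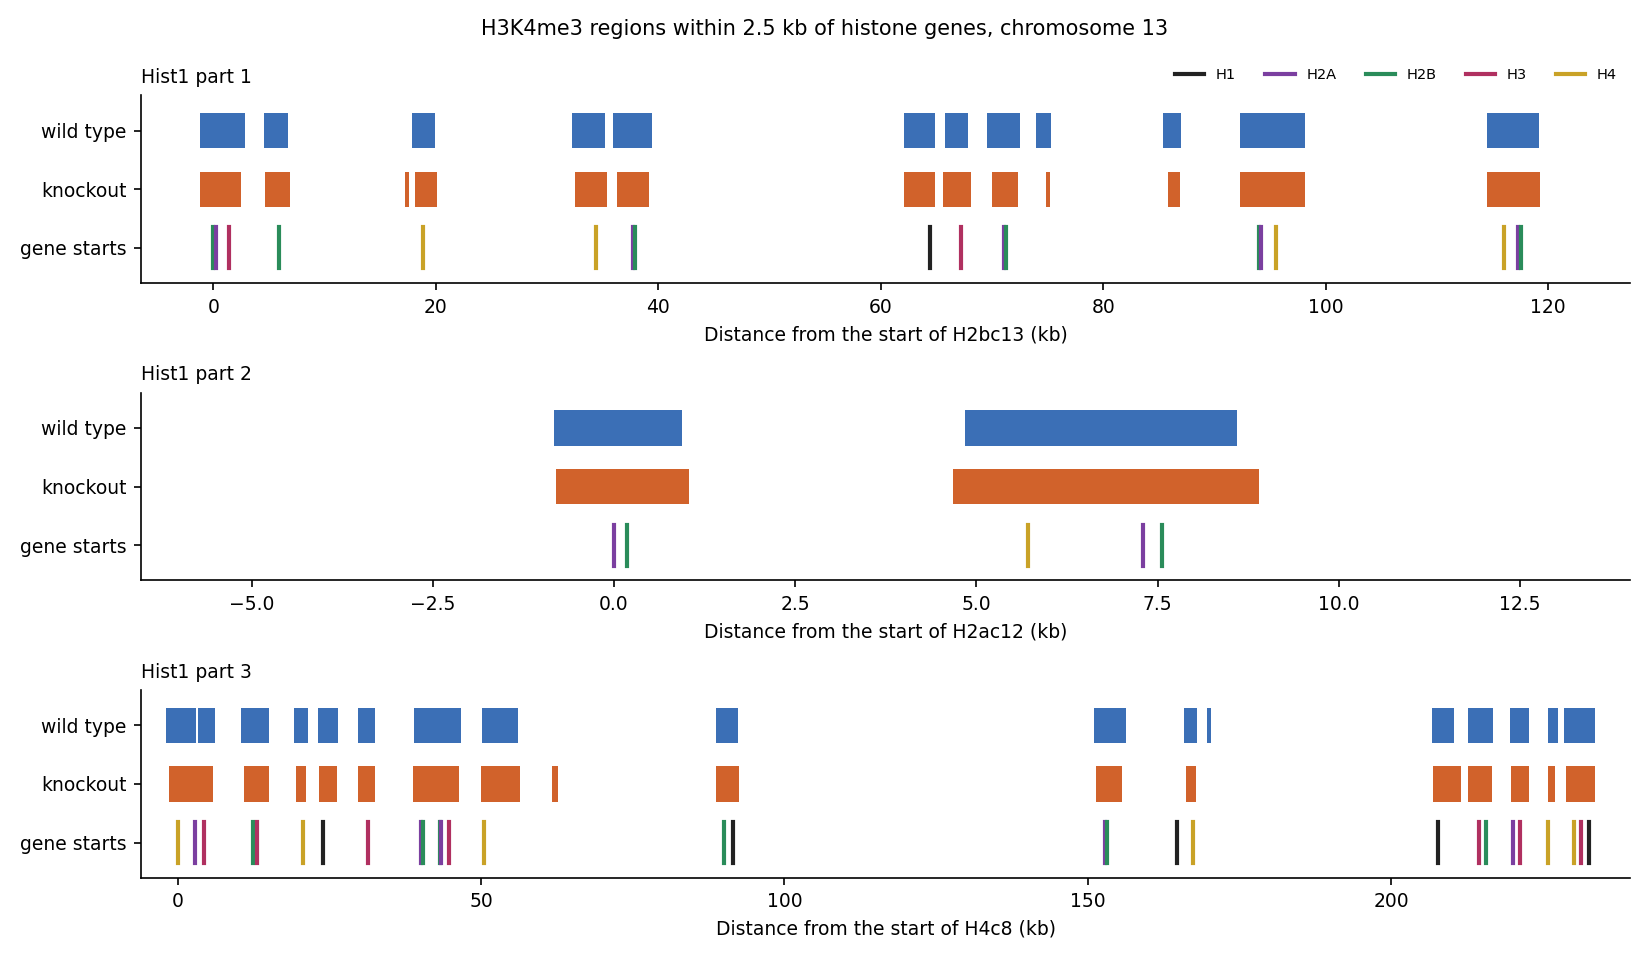
Map of H3K4me3 regions (bars, wild type above knockout) and histone gene starts (ticks, coloured by histone type) in parts 1, 2 and 3 of the Hist1 cluster, with the x axis giving the distance in kb from the first start of each part. The bars of both genotypes stand at the same groups of starts, and the knockout bar at the left of part 3 covers 7359 bp where the wild type has bars of 5044 and 2690 bp.

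When regions less than or equal to 1 kb apart were merged, there were 32 wild-type and 33 knockout domains that held histone starts, with median widths of 3926 and 3987 bp. The widest 5% of all domains began at 4312 bp in the wild-type list and at 4847.3 bp in the knockout list. By these cut-offs 13 wild-type domains with 33 histone genes and 7 knockout domains with 20 histone genes were among the widest 5% of their own list. The medians were close, and the cut-off itself was higher in the knockout list. The domains behind each cut-off were not limited to those at gene starts.

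Divergent pairs were sought among the 62 genes with a known strand. There were 10 pairs of genes with starts up to 1000 bp apart that faced away from each other, each made of 1 H2A and 1 H2B gene. Their starts were separated by 163 to 280 bp, with a median of 203.5 bp. In 9 of the 10 pairs both starts lay under 1 region in both lists, and the exception was the testis pair H2bc1 and H2ac1. H2bc21, H2bc4, H3c7 and H3c1, which have no strand in the table, each have a boundary near the start of a minus-strand gene and could not be judged. Within a pair the covered lengths are therefore nearly the same measurement.

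Around the start, the mark reached further upstream at histone genes than at other marked genes. At 2500 bp before the start, 40.3% of the 62 histone genes with a known strand lay under a wild-type region and 37.1% under a knockout region, beside 9.08% and 9.21% of 9852 other genes marked in both lists. At 1000 bp before the start the shares were 67.7% and 72.6%, beside 46.2% and 44.1%. Just after the start, at 200 bp, the shares were close, with 93.5% and 95.2% for the histone genes and 91.3% and 93.0% for the others. At 2000 bp after the start they were 41.9% and 37.1%, beside 30.2% and 32.9%. Neighbouring histone genes lie within these distances of each other, so the upstream part of one window often holds the start of the next gene. The summits nearest to a start with a known strand lay mostly after the start, 27 of 32 downstream in the wild type with a median of 307.5 bp, and 26 of 32 in the knockout with a median of 186.5 bp.

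**Figure D3:**
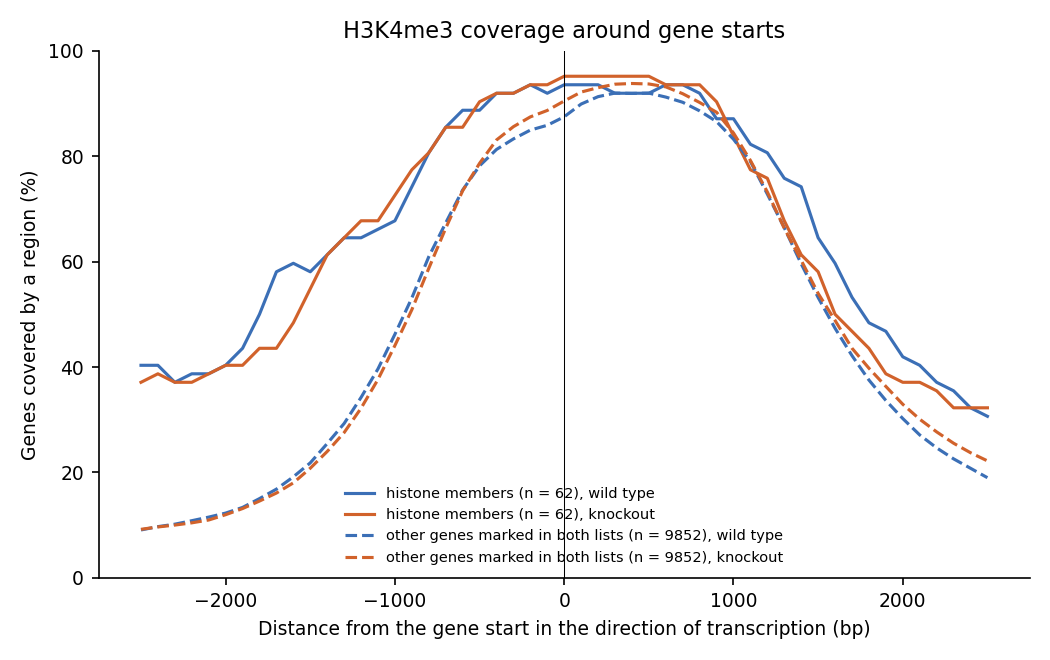
Percentage of genes under a region (y axis) by distance from the start in bp along the gene's own strand (x axis), for 62 histone genes and 9852 other genes marked in both lists, with 1 line per library and gene group. The histone lines stay at 40.3% and 37.1% at 2500 bp upstream, where the lines of the other genes are at 9.08% and 9.21%, and the lines run between 91.3% and 95.2% at 200 bp downstream.

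Covered length at the histone genes differed little between the genotypes. The knockout value minus the wild-type value had a median of -47 bp, and this median was -26 bp over all genes marked in both lists and 0 bp over all coding genes. The knockout had less at 40 of the 67 genes, where 34.5% of all coding genes and 53.9% of those marked in both lists had less, and more at 22 genes, where the shares were 30.1% and 45.0%. The difference was under 500 bp either way at 61 genes. One gene was at least 500 bp longer in the knockout, where 9.47% of all coding genes and 11.7% of those marked in both lists were. At least 500 bp was lost at 5 genes, where the shares were 6.38% and 8.66%. In these windows the share with a loss was near this background and the share with a gain was below it. Other settings gave other readings. With 5 kb on either side 28.4% of the histone genes had such a loss, beside 10.9% of all coding genes. With the 20000 regions of highest −log10 p in each list 8.96% had such a gain, beside 8.80%. All coding genes include the 38.3% marked in neither list as reported. Shares over genes marked in both lists were not computed at these settings.

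The single gain past 500 bp was at H2bu2, an H2B gene of the Hist3 cluster. Its covered length was 577 bp in wild-type cells and 1407 bp in knockout cells, a difference of 830 bp. The wild-type region (chr11:58948207-58948783) lay wholly before the start printed above, and the knockout region (chr11:58948011-58949417) covered it. The next longest gains were at H2ac11, with 3751 and 4097 bp, at H2ac10, with 4698 and 5001 bp, at H2bc11, with 3546 and 3848 bp, and at H3c11, with 2397 and 2694 bp. These were the H2A, H2B and H3 genes ranked next by gain, and each difference was at most 346 bp.

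The 5 losses past 500 bp came from 3 places. At the divergent pair H2ac15 and H2bc15, 1 region of 3555 bp in the wild type (chr13:21752086-21755640) stood where the knockout had 2828 bp (chr13:21752484-21755311), and the covered length was 3555 and 2994 bp at H2ac15 and 3555 and 2830 bp at H2bc15, wild type first. At the divergent pair H2ac22 and H2bc22 it was 3010 bp in wild-type cells and 2294 bp in knockout cells for both genes. The H4 gene H4c6 had 2254 and 1706 bp. In all 3 places the knockout region lay inside the wild-type region, and the knockout region still covered every start. With 1 kb on either side of the start none of the 5 reached 500 bp, since the difference was 0 bp at H2ac15, H2bc15, H2ac22 and H2bc22 and -181 bp at H4c6. The differences nearest the threshold of 500 bp were -548 bp at H4c6 inside it, and -488 bp at H4c8 and -478 bp at H4c3 outside it.

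The clusters were then described separately, with Hist1 split into 4 parts at gaps of over 100 kb. The counts stand beside 53.9% shorter and 45.0% longer in the knockout over all genes marked in both lists. Part 1 (chr13:21715711-21837530) has 18 genes, and its covered length was longer at 9 and shorter at 8, with a median difference of 5 bp and all but 1 of the family's losses past 500 bp. Part 2 (chr13:22035122-22043658) has 5 genes, which were longer in the knockout at 5 of 5, by 72 to 346 bp with a median of 175 bp. These 5 genes lie under 2 regions, so they count as 2 observations. Part 3 (chr13:23531044-23764412) has 29 genes and was shorter at 20 and longer at 7, with a median of -186 bp. Hist2 (chr3:96219885-96270192) was shorter at 10 of 10 genes, by amounts between -249 and -6 bp with a median of -70 bp. These 10 genes lie under 5 regions in each list, and the difference at H2bc21 was 200 bp when only regions with a −log10 q of at least 5 were kept. In Hist3 the H2A gene H2aw went the other way from H2bu2, with 4209 bp in wild-type cells and 4004 bp in knockout cells. The lone Hist4 gene, H4f16, had 3585 and 3287 bp.

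The share of each cluster's span that lay under regions was similar in the genotypes. It was 31.6% in wild-type and 29.0% in knockout cells for part 1 (121.82 kb), and 54.2% and 57.4% for part 2 (8.537 kb). For part 3 (233.369 kb) it was 28.0% and 27.1%, and for Hist2 (50.308 kb) it was 42.4% and 38.5%. Over the 2219.203 kb from the first to the last Hist1 gene, 11.5% and 10.7% were covered.

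By product, the median difference was -14 bp for H2A and 0 bp for H2B, the partners of the histone dimer. It was -192 bp for H3, with 10 of 12 genes shorter, and -298 bp for H4, with 8 of 13 shorter and 4 longer. For H1, the linker histones, it was -89.5 bp, with 4 of 6 shorter. Over all genes marked in both lists, 53.9% were shorter in the knockout and 45.0% longer. Median covered lengths were 4046.5 and 4004 bp for H3, 3912.5 and 3923 bp for H2A, 3640 and 3759.5 bp for H2B, 3393.5 and 3408.5 bp for H1 and 3370 and 3287 bp for H4, wild type first. Genes of different types share regions within a cluster, so the types are not independent groups.

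The fold of a region, the authors' own ratio of summit reads to local background within 1 library, was read only within each list. In the wild-type list the strongest region within 1 kb of a histone start had a median fold of 22.1 (range 5.98 to 38.7), beside a median of 28.6 for other marked genes. Of the 64 marked histone genes, 13 were above that median and 24 were below the lower quartile of 18.2. In the knockout list the median was 26.8 (range 12.7 to 50.9), beside 32.1 for other marked genes. There 25 histone genes were above that median and 6 were below the lower quartile of 19.3. Within each list, then, the histone genes had long regions, often shared by neighbours. Counted by gene, the folds of these regions were more often below than above the median of other marked genes.

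The clusters held different places in this ranking. H4f16 had the highest fold of the family, 38.7 among wild-type regions and 50.9 among knockout regions. H2ac21 and H2bc21 of Hist2, which share a region with H2ac20, followed in the wild-type list at 36.7. In the knockout list H4c8 and H3c8, which share a region with H2ac10, followed at 46.2. The summit of that knockout region lay 470 bp from the H4c8 start and 4844 bp from the H3c8 start. In the wild-type list H3c8 had a region apart from H4c8, with a fold of 29.9. The regions of Hist2 genes had a median at percentile 91.8 of all wild-type regions and 94.6 of all knockout regions, those of part 1 at 71.5 and 79.3, and those of part 3 at 78.8 and 84.8. The regions of part 2 were at percentiles 46.9 to 49.5 of the wild-type list and 73.8 to 75.4 of the knockout list.

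The lowest folds were at H2bu2, with 5.98 among wild-type regions and 12.7 among knockout regions. H2bc11 and H2ac11, both under the part 2 region that H4c9 shares, were next in the wild-type list at 7.28. In the knockout list the next were H4c2 at 16.5 and H2bc12, under 1 region with H2ac12, at 17.7. Each list was also limited to the 20000 regions with its highest −log10 p, which is not a cut on fold. The 5 part 2 genes and H2bu2 then lost their wild-type region, and 58 histone genes stayed marked in the wild type. For example, H2ac11 then had 0 bp in wild-type cells and 4097 bp in knockout cells, and 6 genes rather than 1 were at least 500 bp longer, which is 8.96% of the histone genes beside 8.80% of all coding genes at that setting.

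**Figure D4:**
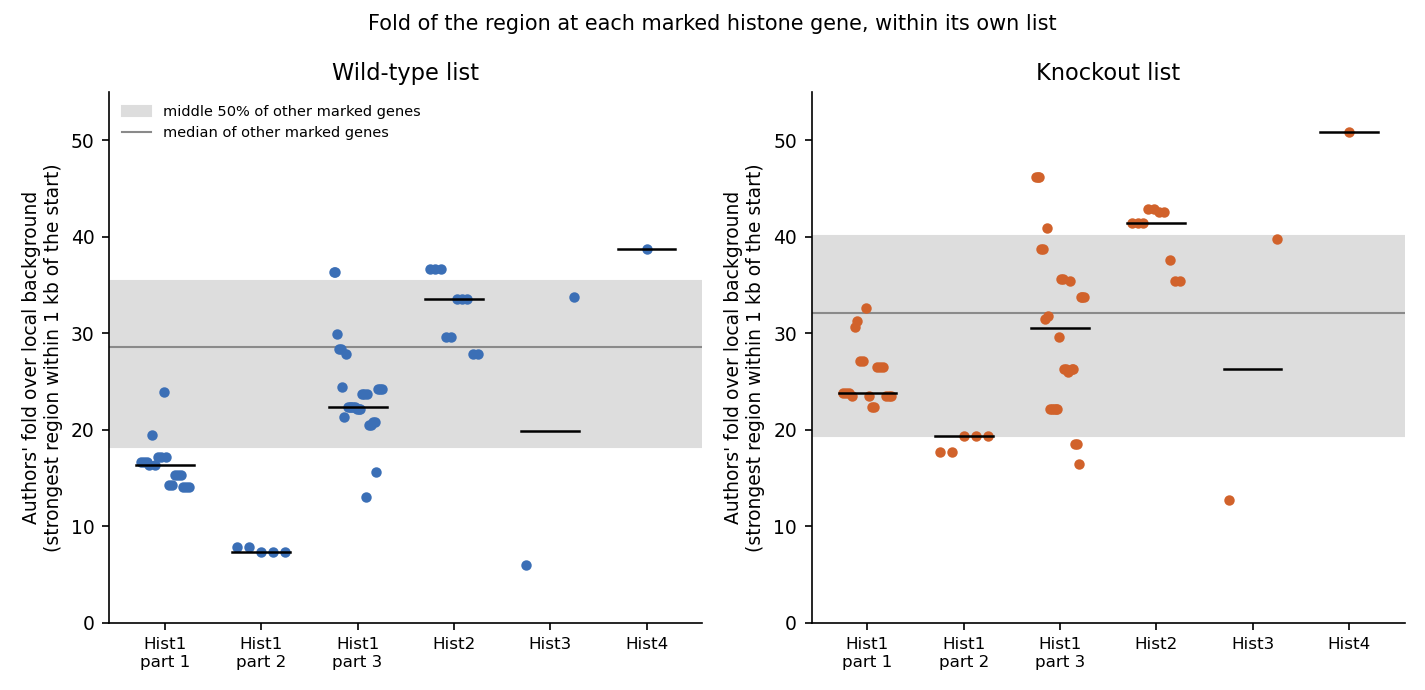
The authors' fold of the strongest region within 1 kb of the start (y axis) for the 64 marked histone genes by cluster (x axis), in the wild-type list (left) and the knockout list (right), with a bar at each cluster's median, a grey band for the middle 50% of other marked genes and a grey line at their median. Genes that share a region have the same value, the part 2 genes lie at 7.28 to 7.80 in the wild-type list and at 17.7 to 19.3 in the knockout list, and the lists are not on a common scale.

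Identical copies limit single genes of part 1. H2bc23 and H4bc24 have the same 250 bases before their starts, and whether reads that match both places were kept is not given in the sources used here. H2bc23 had 4195 bp covered in wild-type cells and 4206 bp in knockout cells, and H4bc24 had 4099 and 4180 bp. Reads from the one cannot be told apart from reads of the other in the identical stretch. Only the 250 bases before each start were compared, position by position. Copies that are shifted, or alike within the genes, were not sought, so the limit may reach other histone genes and clusters.

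Histone genes outside the replication-dependent set were mixed. Of 15 replication-independent variant genes, 11 were marked in wild-type cells, 11 in knockout cells and 10 in both, with a median difference of 0 bp. Over all coding genes the marked shares were 58.5%, 59.9% and 56.7%. H2ax, the variant that is phosphorylated at DNA breaks, had 3130 bp in wild-type cells and 3647 bp in knockout cells. It was the single variant gene at least 500 bp longer, where 9.47% of all coding genes were. Macroh2a2, a macroH2A gene, had 465 and 0 bp, and H1f10, a linker variant, had 0 and 440 bp. H2aj, an H2A variant, had 3671 and 3237 bp.

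Genes that serve the histone genes were all marked. Of 20 genes of the histone locus body and of histone mRNA synthesis and processing, 20 were marked in each list, with a median difference of 16 bp, 1 at least 500 bp longer and 0 at least 500 bp shorter. The exception past 500 bp was Ccne1, which encodes cyclin E1, with 2445 bp in wild-type cells and 3222 bp in knockout cells. Ncbp2, a subunit of the cap-binding complex, had 3632 and 3150 bp, and Cpsf3, the nuclease that cuts the 3′ end of the transcript, had 3273 and 3649 bp. Mtf2, a Polycomb-associated protein in the same list, had 2270 and 2714 bp. Over all genes marked in both lists, 11.7% were at least 500 bp longer in the knockout and 8.66% at least 500 bp shorter.

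DNA replication genes, which share the S phase programme, were likewise marked at 29 of 29 in each list, with a median difference of 92 bp. At least 500 bp was gained at 2, Cdc6, which loads the replicative helicase, with 1985 and 3171 bp, and Pold1, the catalytic subunit of DNA polymerase delta, with 1504 and 2048 bp. At least 500 bp was lost at 2, Pcna, the sliding clamp, with 3549 and 2924 bp, and Gins1, a subunit of the helicase, with 2526 and 1945 bp. Of all genes marked in both lists, 11.7% gained at least 500 bp and 8.66% lost as much.

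Another 50 protein-coding genes lie between the first and the last Hist1 gene. They include 36 Vmn1r genes for vomeronasal receptors, of which 0 were marked in either list. Of the remaining 14, 8 were marked in wild-type cells and 7 in knockout cells, beside 58.5% and 59.9% of all coding genes. The low count among the 50 therefore came mostly from the Vmn1r genes. Trim38, a ubiquitin ligase of innate immunity, had 862 bp in wild-type cells and 0 bp in knockout cells. Btn1a1, which encodes a milk-fat globule protein, had 4783 and 4358 bp, Zfp322a, a zinc finger gene, had 2550 and 2870 bp, and Pom121l2 had 675 and 963 bp.

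**Figure D5:**
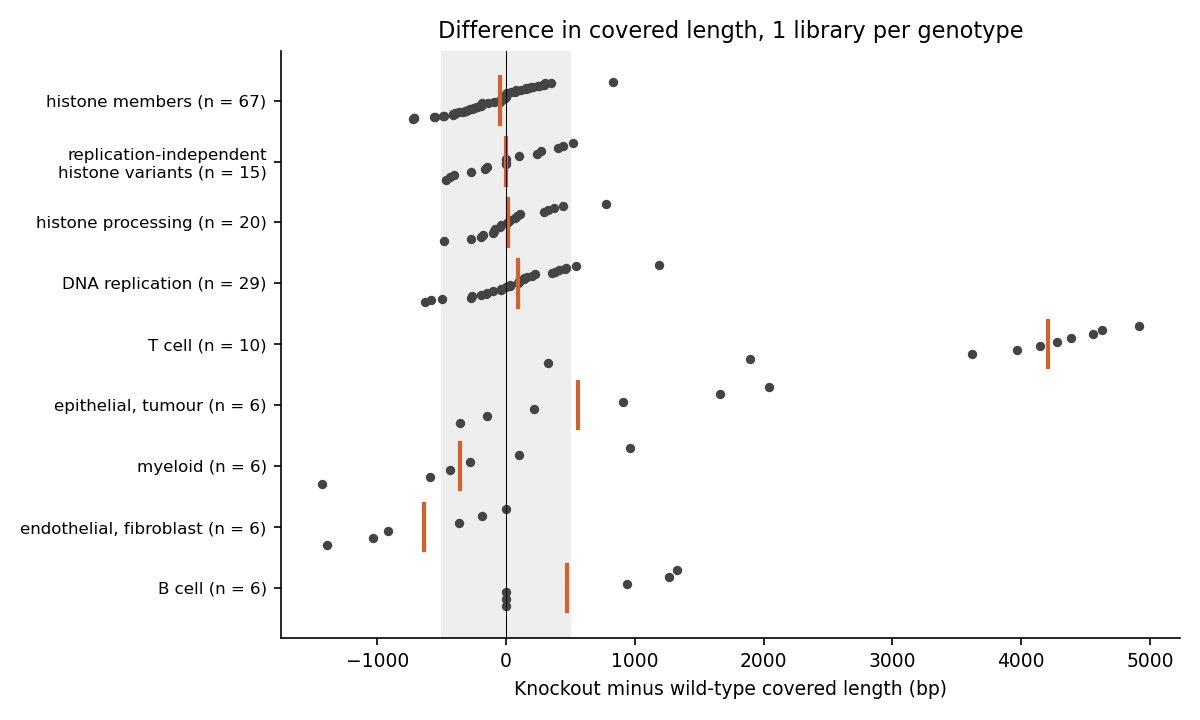
Knockout minus wild-type covered length in bp (x axis) for each gene of the histone family, of 3 related lists and of 5 cell type marker lists (y axis), with 1 dot per gene, an orange bar at the median of the list and grey shading for differences under 500 bp. The histone genes lie between -725 and 830 bp with a median of -47 bp, and the T cell markers lie between 326 and 4913 bp with a median of 4210 bp.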

How the data were processed

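H3K4me3 peak lists of 2 libraries, 1 per genotype, were used. Peaks were called with MACS2 on GRCm38 (mm10), per the submitters' processing notes. The sources used here do not say which aligner, read filters or MACS2 settings were used, or whether input was. The authors deposited for each region its start, end and summit, a fold ratio over local background, −log10 p and −log10 q values and a score, which is the deposited −log10 q on another scale and was not used. The smallest −log10 q that the authors kept was 2.00 (wild type) and 2.02 (knockout).

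Regions outside the autosomes, X and Y were left out. The gene start was the 5′ end of the gene where the RefSeq promoter table gave a strand (17492 of 21887 coding genes, 62 of 67 histone genes), and otherwise the gene boundary with more covered length summed over both lists. Covered lengths, overlaps (at least 1 bp) and motifs were computed in Python 3.11.15 with NumPy 2.4.6, pandas 2.3.3 and SciPy 1.17.1, and figures drawn with Matplotlib 3.10.9. The covered-length step was tested on simulated regions. With 1 library per genotype there is no test; depth is unknown, and counts are read beside those of all coding genes. Named genes are those marked in 1 list only or in neither, the 5 longest gains and losses, the 3 highest and lowest folds in each list, the testis genes and up to 4 genes of each other list with the largest difference. The genes and lists were chosen with earlier results of these data known.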

Additional observations from a re-analysis of the deposited data

How the results depend on the processing

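The number of histone genes marked ranged from 58 to 65 in the wild type and from 64 to 65 in the knockout over the alternatives that kept all 67 genes. It was 60 of 63 in each list for the genes matched by symbol and 59 of 62 in each for those with a strand. Shares below are those of the histone genes, each beside that of all coding genes at the same setting. All coding genes include many without the mark (38.3% in neither list as reported), and shares over genes marked in both lists were not computed here. The count at least 500 bp longer in the knockout was 1 as reported (1.49% beside 9.47%). It was 6 with the 20000 regions of highest −log10 p in each list (8.96% beside 8.80%) and 5 with 5 kb on either side (7.46% beside 13.6%). It was 2 over the gene span with 2.5 kb on either side (2.99% beside 18.5%), and 0 with the genes matched by symbol alone, which leaves out H2bu2. It was 9 with a difference of at least 200 bp (13.4% beside 18.0%) and 0 with at least 1000 bp, where 3.99% of coding genes passed. The count at least 500 bp shorter, 5 as reported (7.46% beside 6.38%), was 0 with 1 kb on either side, where 1.66% of coding genes passed, 19 with 5 kb (28.4% beside 10.9%) and 9 over the gene span (13.4% beside 16.6%). It was 24 with at least 200 bp (35.8% beside 18.6%) and 0 with at least 1000 bp, where 1.25% of coding genes passed. The median difference, -47 bp as reported, was 0 bp with 1 kb on either side, -91 bp over the gene span and -280 bp with 5 kb on either side. Among the named histone genes and H2bc6, 178 differences were recomputed, of which 165 came within 500 bp of the reported value and 13 did not. The sign turned in 4, which were H2ac10 (303 to -375 bp) and H3c11 (297 to -40 bp) with 5 kb, H4c2 (-362 to 30 bp) with 1 kb, and H2bc21 (-6 to 200 bp) with a −log10 q of at least 5, and the reported difference was under 500 bp in each. At H2bc6, a second start in the promoter table gave 3737 and 3939 bp in place of 3571 and 3830 bp. The alternatives on symbol, strand and H2bc6 were added after the data were seen. Depth is not stated in the lists, so what it limits is unknown. No paired analysis was possible because each genotype has 1 library.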

Other observations

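Pseudogenes of the family, which are not protein-coding and entered no count above, lay under regions in both lists. H2ac5-ps had covered lengths of 4173 bp (wild type) and 3987 bp (knockout), under the region of H3c3 and H2bc3. H2bu1-ps had 4036 and 3831 bp beside H2aw, and H2ac14 had 2311 and 2245 bp beside H2bc14. H2af-ps2, which lies on chromosome 13 outside the Hist1 cluster (chr13:51200084-51203066), had 330 and 508 bp, with folds of 4.68 and 4.98, each within its own list.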
